A study of Caenorhabditis elegans with 30 samples.

Results

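The effect of losing pek-1 in the absence of any applied stress was measured by setting *Caenorhabditis elegans* pek-1 mutants on the empty RNAi vector pL4440 against wild-type (N2) animals on the same vector. The comparison uses 6 of the 30 arrays of the study, 3 per genotype, and all 28387 probe sets of the deposited tables. The labels describe the mutant only as a knockout, with no allele, and say nothing of outcrossing or of separate cultures behind the 3 arrays of each genotype, so p-values measure the spread between arrays, which may be technical. Synchronised L1 larvae of every group were raised to young adults on medium with 25 µg/mL carbenicillin and 1 mM IPTG, and RNA came from whole animals, in which fewer cells of a type and less RNA per cell cannot be told apart. Further groups, each of 3 arrays, give context. They are the pek-1 mutant and wild type on RNAi against pmt-2 (a phosphoethanolamine methyltransferase of phosphatidylcholine synthesis), and the atf-6 and ire-1 mutants on vector and on that RNAi. The others are a pmt-2 mutant, by its titles on vector, and wild type given the glycosylation inhibitor tunicamycin (25 µg/mL for 4 hours). The labels conflict in places. The treatment text of both genotypes on vector and on RNAi also lists tunicamycin, although their titles and RNAi fields name no drug, and the source fields of the wild-type RNAi and tunicamycin groups are at odds with their titles. Titles and the RNAi or drug fields were used throughout. pmt-2 averaged 6.63 in wild type labelled as RNAi, 8.7 in wild type labelled as tunicamycin and 10.14 in wild type on vector.

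PEK-1 is the worm form of PERK, a kinase that spans the membrane of the endoplasmic reticulum (ER). When unfolded proteins gather in the ER, PERK phosphorylates the translation factor eIF2 alpha, which lowers protein synthesis while favouring translation of the transcription factor ATF4, an activator of amino acid synthesis genes in mammals. IRE-1, which splices the xbp-1 transcript, and ATF-6 are the other sensors of this unfolded protein response, whose best known targets are the BiP chaperones hsp-3 and hsp-4.

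Few probe sets passed a test for a difference between untreated pek-1 mutants and wild type. With 3 arrays per group, this does not show that few transcripts differ. Of the 28387 probe sets, 32 (0.113%) passed an adjusted p of 0.05 in limma's moderated test, 20 higher in the mutant (0.0705%) and 12 lower (0.0423%). The median size of their changes was 0.93 on the log2 scale. In 15 the signal changed by 1 or more on that scale, and in 3 by 2 or more. In all 32 the arrays of the genotypes did not overlap, which was also so for 11.9% of all probe sets. An unadjusted p under 0.05 was reached by 2404 probe sets (8.47%). Over all probe sets, arrays of unlike genotype correlated at 0.987 to 0.991, and arrays of like genotype at 0.989 to 0.991. The division into higher and lower depended on the scaling, since with each array centred on its median 16 were higher and 16 lower. The authors' deposited table listed no probe set with an FDR p-value under 0.05 for these groups (lowest 0.0783), and 1744 at its p-value under 0.05.

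**Figure D1:**
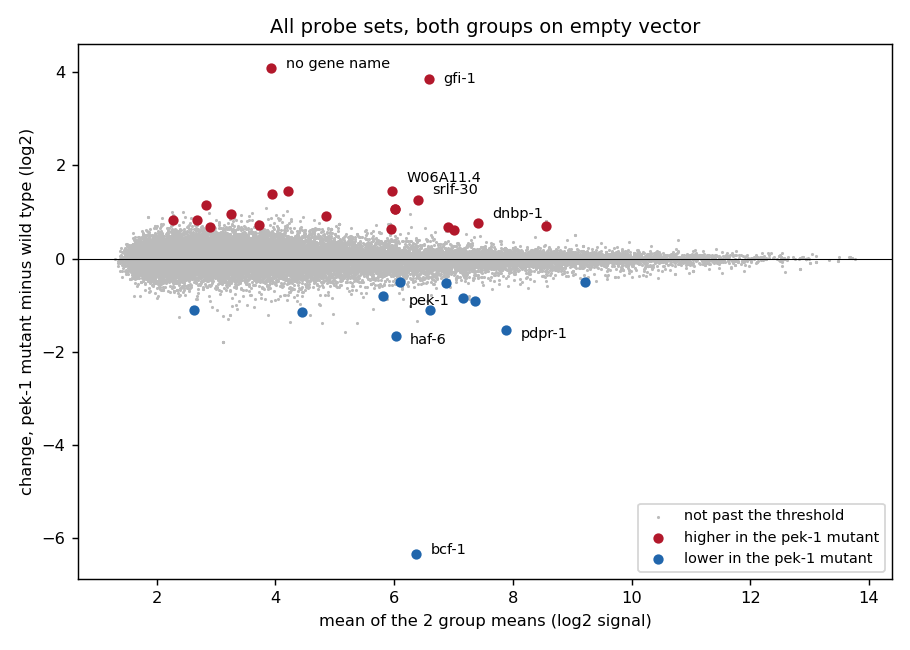
Change between the pek-1 mutant and wild type on vector (log2, vertical axis) against the mean of the group means (log2 signal, horizontal axis) for all 28387 probe sets, with 3 arrays per group. Red points are the 20 probe sets higher in the mutant and blue points the 12 lower ones at an adjusted p under 0.05, and bcf-1, gfi-1 and a probe set with no gene name lie far from the rest.

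The targeted gene was lower in the mutant. pek-1 (F46C3.1, chromosome X, 11410117 to 11414747 in the files' own coordinates, of a build that no source used here names) had log2 signals of 6.86, 6.77 and 6.61 in pek-1 mutants, against 7.45, 7.54 and 7.76 in wild type. The groups did not overlap. The change was -0.84 (SE 0.10, n = 3 each, limma adjusted p = 1.09e-04), a 1.79-fold lower signal, so the transcript was reduced but still gave signal well above the median of all probe sets (3.78 in the mutant). Fitted on these 6 arrays alone, with few degrees of freedom, the same change had an adjusted p of 0.503. Where the mutation lies relative to the probes is not given in the labels. On pmt-2 RNAi, in arrays that the vector comparison does not share, pek-1 was lower by a like amount (-1.02, adjusted p = 7.19e-07), although its level was higher in both genotypes there, 7.70 in the mutant and 8.72 in wild type. The pek-1 mutant was also the lowest of the vector groups, at -0.74 against the atf-6 mutant (adjusted p = 0.00109) and -0.46 against the ire-1 mutant (adjusted p = 0.00697).

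Direct tests set the pek-1 mutant against each of the other sensor mutants on vector, with its own 3 arrays in common to all these comparisons. Against the atf-6 mutant 12 probe sets passed (0.0423%), 9 higher in the pek-1 mutant (0.0317%) and 3 lower (0.0106%). Against the ire-1 mutant 1507 passed (5.31%), 630 higher (2.22%) and 877 lower (3.09%). Besides pek-1 itself, pdpr-1 and dnbp-1 differed from wild type and in both of these tests. pdpr-1 (Y106G6H.5, chromosome I, 10438066 to 10443556), named for the regulatory subunit of pyruvate dehydrogenase phosphatase, which in mammals takes part in switching on pyruvate oxidation, had log2 signals of 7.11, 7.08 and 7.17 in pek-1 mutants, against 8.7, 8.69 and 8.61 in wild type. The arrays lay tightly within each group and far apart between them. The change was -1.55 (SE 0.08, adjusted p = 8.20e-13), a 2.92-fold lower signal. It was -1.52 against the atf-6 mutant and -1.54 against the ire-1 mutant (adjusted p = 3.74e-12 and 5.01e-13), and -1.85 on pmt-2 RNAi (adjusted p = 3.86e-14). Outside the pek-1 mutant the group means of pdpr-1 ran from 8.17 in the pmt-2 mutant to 8.73 in the atf-6 mutant on RNAi, while the pek-1 mutant stood at 7.12 on vector and 6.87 on RNAi. pdpr-1 and pek-1 lie on different chromosomes.

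dnbp-1 (Y37A1B.17, chromosome IV, 13964336 to 13979822) moved the other way. Its log2 signals were 7.76, 7.86 and 7.75 in pek-1 mutants, against 7.13, 6.95 and 7.0 in wild type, with no overlap. The change was 0.76 (SE 0.10, adjusted p = 1.41e-04), and on RNAi it was 0.64 (adjusted p = 2.90e-04). Against the other sensor mutants dnbp-1 was higher by 1.02 in the comparison with atf-6 and by 0.82 in that with ire-1, both past the threshold (adjusted p = 2.97e-06 and 3.68e-06). The pmt-2 mutant, with a mean of 7.99, was as high as the pek-1 mutant on RNAi at 7.85, so a high dnbp-1 signal was not confined to pek-1 mutants. A probe set for Y51A2B.8 also passed in these comparisons, but at very low signal (2.35, 2.75 and 2.96 in the mutant, against 1.97, 1.82 and 1.8 in wild type). Its change of 0.83 (adjusted p = 0.0266) missed the threshold in 4 of the 6 fits that left out 1 array, without the second or the third array of either genotype, at adjusted p from 0.0943 to 0.155, and on RNAi the value was -0.42.

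**Figure D2:**
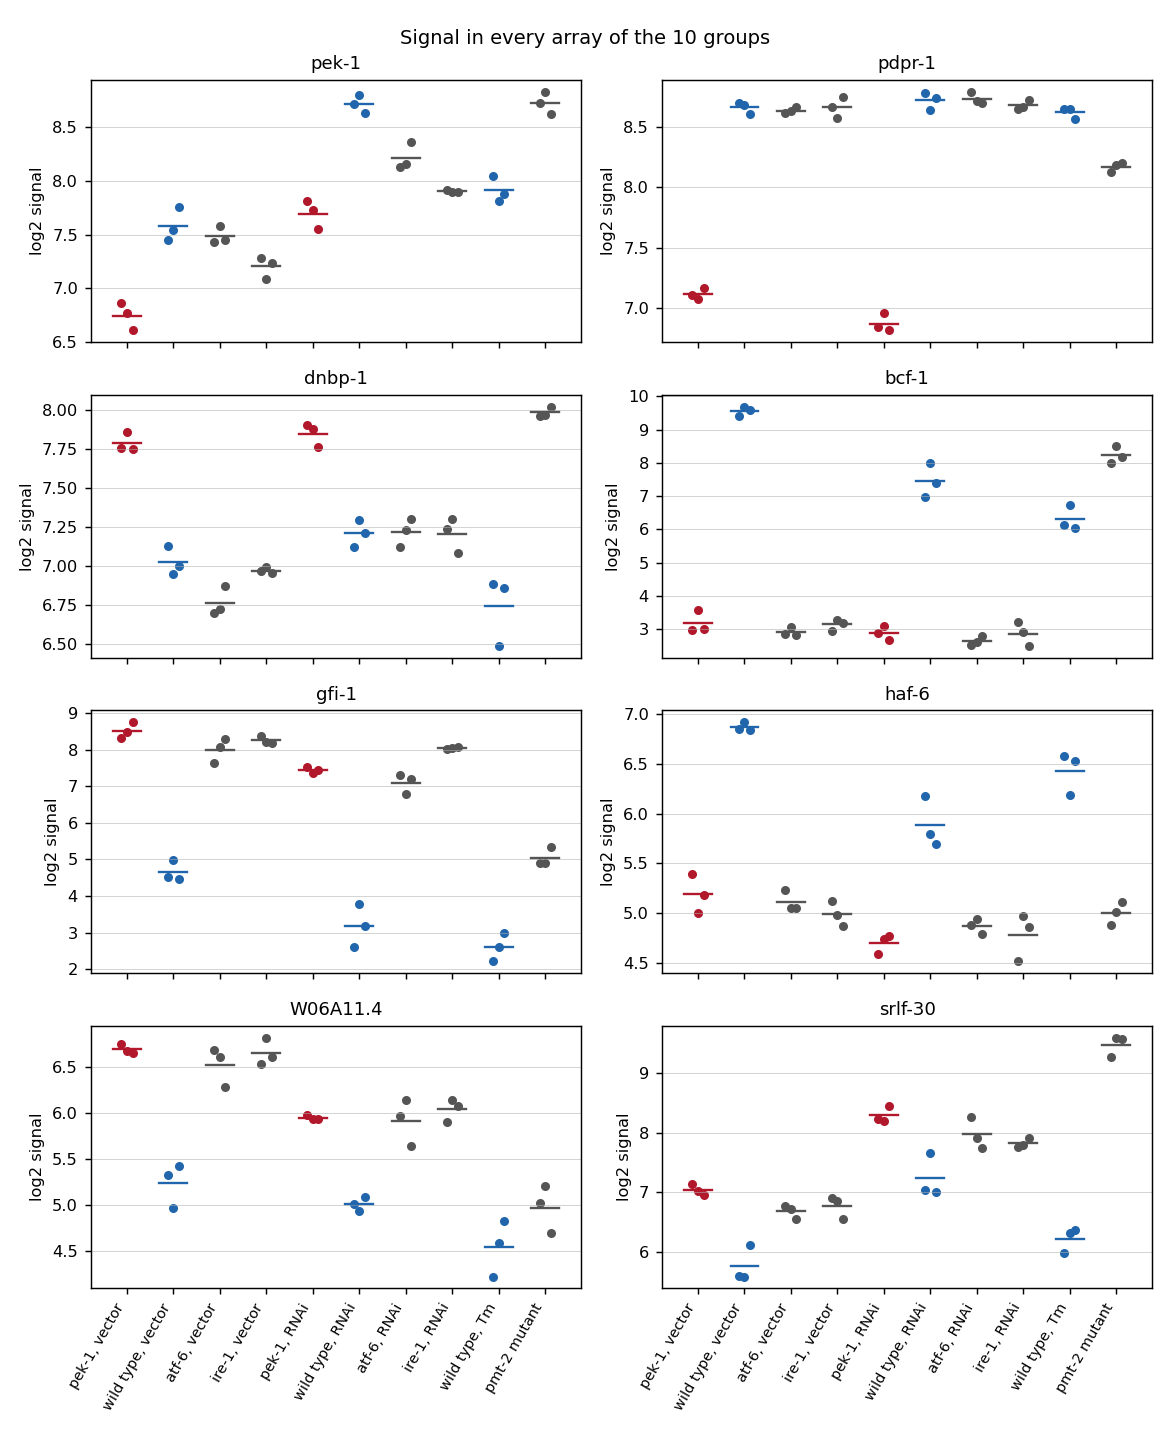
Log2 signal per array (points) with the group mean (bar) in the 10 groups of 3 arrays for 8 of the genes that passed the threshold, pek-1 mutants in red, wild type in blue and other strains in grey. pek-1 and pdpr-1 are lowest among groups of the same RNAi in the pek-1 mutant. bcf-1 and gfi-1 show the pek-1, atf-6 and ire-1 mutants far from wild type and the pmt-2 mutant, whose levels vary between groups.

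The largest differences belonged to genes at which the pek-1, atf-6 and ire-1 mutants had like signals and wild type stood apart. The vector groups of these mutants share the wild-type arrays as their control, so the mutant levels are given side by side. bcf-1 (F57F4.4, chromosome V, 6401352 to 6408767) had log2 signals of 2.99, 3.59 and 3.0 in pek-1 mutants, against 9.40, 9.68 and 9.58 in wild type. Its change of -6.36 (SE 0.22, adjusted p = 1.03e-15) is an 82.2-fold lower measured signal. The mutant mean of 3.19 lay under the median of all probe sets, near the low end of the signal range, so this fold is set by that low level and may understate the difference in transcript. On vector the atf-6 and ire-1 mutants averaged 2.93 and 3.15. The pek-1 mutant on RNAi averaged 2.90, and the pmt-2 mutant 8.24. The direct difference between the pek-1 mutant and each of the other sensor mutants was at most 0.27 and did not pass the threshold. Wild type itself varied with treatment, at 7.46 on RNAi and 6.31 with tunicamycin.

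The neighbouring gene, gfi-1 (F57F4.3, chromosome V, 6392519 to 6399904), whose end lies 1448 bases before the start of bcf-1, changed in the opposite direction. It had log2 signals of 8.32, 8.49 and 8.75 in pek-1 mutants, against 4.53, 4.99 and 4.47 in wild type. The change was 3.86 (SE 0.23, adjusted p = 4.69e-11), a 14.5-fold higher signal. The atf-6 and ire-1 mutants on vector stood at 8.0 and 8.26, and the pmt-2 mutant at 5.05, near wild type on vector. Wild type averaged 3.19 on RNAi and 2.60 with tunicamycin at gfi-1. Whether sequence shared between these neighbours lets one transcript reach the probes of the other was not tested. A probe set to which the files give no gene had the largest rise, with 6.23, 6.02 and 5.68 in pek-1 mutants, against 1.82, 1.90 and 1.94 in wild type (change 4.09, SE 0.19, adjusted p = 5.70e-13), and means of 6.23 and 6.0 in the atf-6 and ire-1 mutants. All 3 features changed in the same direction on RNAi, by -4.56, 4.26 and 4.14.

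haf-6 (Y48G8AL.11, chromosome I, 1162892 to 1175871), which encodes an ABC transporter needed for efficient RNAi, was lower as well. Its log2 signals were 5.4, 5.0 and 5.18 in pek-1 mutants, against 6.85, 6.92 and 6.84 in wild type. The change was -1.68 (SE 0.14, adjusted p = 2.98e-08), a 3.2-fold lower signal, and on RNAi it was -1.19 (adjusted p = 3.60e-06). For haf-6 the atf-6 and ire-1 mutants on vector averaged 5.11 and 4.99, and the pmt-2 mutant 5.0, so all mutant strains were lower than wild type on vector. Wild type itself varied with treatment at haf-6, at 6.87 on vector, 5.89 on pmt-2 RNAi and 6.43 with tunicamycin. What differs between the mutant strains and wild type besides the named mutations is not in the labels, and an effect of losing pek-1 and other differences between the strains cannot be told apart in this comparison.

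Smaller changes had a like arrangement on vector. The filamin gene fln-2, an actin crosslinker, had 5.89, 6.23 and 6.03 in pek-1 mutants, against 7.06, 7.19 and 7.21 in wild type (change -1.1, SE 0.14, adjusted p = 1.41e-04). Its means were 5.81 and 6.2 in the atf-6 and ire-1 mutants on vector, and 9.0 in the pmt-2 mutant. On RNAi fln-2 differed by only -0.20 between the pek-1 mutant and wild type (adjusted p = 0.589). gakh-1, a homologue of the cyclin G associated kinase of clathrin uncoating, fell by 0.80 (SE 0.13, adjusted p = 0.00424), with 5.41 in the pek-1 mutant, 6.21 in wild type and 5.37 and 5.48 in the atf-6 and ire-1 mutants. Y102A5C.36 fell by 1.16 (adjusted p = 0.00319), with 3.87 in the pek-1 mutant and 5.03 in wild type. The mutant level was low, near the median of all probe sets (3.78 in the mutant). The atf-6 and ire-1 mutants on vector averaged 3.88 and 3.92 for this gene. The pseudogene W06A11.4 rose by 1.45 (SE 0.16, adjusted p = 8.57e-06), with 6.75, 6.67 and 6.65 in pek-1 mutants, against 5.33, 4.97 and 5.42 in wild type. srlf-30 rose by 1.27 (SE 0.17, adjusted p = 2.53e-04), and 2 probe sets that both name T04A11.1 and T04A11.4, with identical values, rose by 1.06. The pair was also higher than in the ire-1 mutant (0.49, adjusted p = 0.0353). For each of these genes, the difference between the pek-1 mutant and the atf-6 mutant did not pass the threshold, which does not show that the levels are equal.

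**Figure D3:**
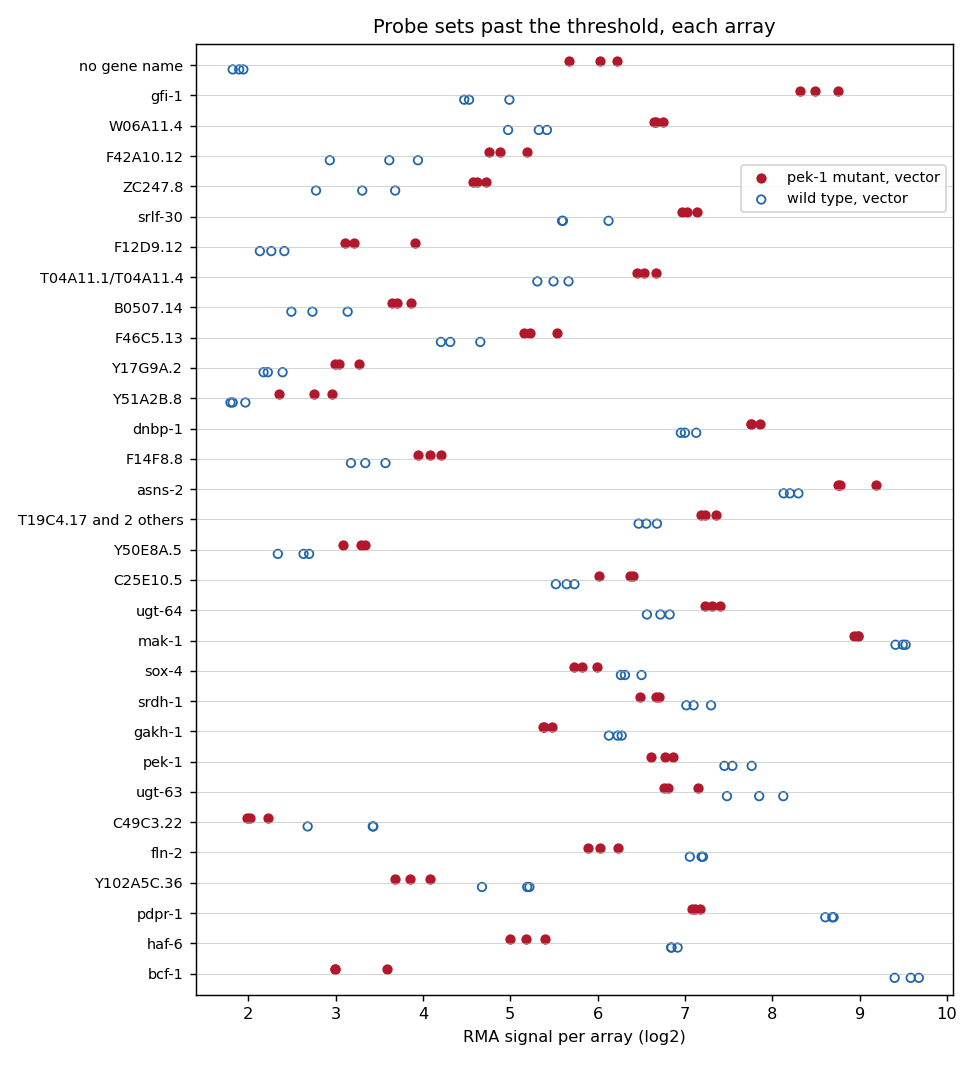
RMA log2 signal of each array for the probe sets past the threshold (3 pek-1 mutant arrays filled red, above 3 wild-type arrays in open blue), ordered by change, with the T04A11.1/T04A11.4 pair drawn once. The arrays of the genotypes do not overlap in any row, and many of the low-signal rows are non-coding RNAs.

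The remaining protein-coding genes changed by less than 1 on the log2 scale. asns-2, an asparagine synthetase whose mammalian counterpart ASNS is a target of ATF4, had 8.77, 9.19 and 8.75 in pek-1 mutants, against 8.13, 8.3 and 8.2 in wild type. The groups did not overlap, and the change was 0.69 (SE 0.13, adjusted p = 0.0307). This call was among the less stable ones. It was lost without the second mutant array (0.55, adjusted p = 0.172) and without any 1 of the wild-type arrays (adjusted p = 0.120, 0.0555 and 0.104), and also with arrays centred on their medians (adjusted p = 0.0543). On RNAi asns-2 stood at 8.43 in the mutant and 8.45 in wild type. On vector asns-2 averaged 8.90 in the pek-1 mutant, 8.76 in the atf-6 mutant and 7.82 in the ire-1 mutant. The direct difference was 0.14 against atf-6 (adjusted p = 0.950) and 1.08 against ire-1 (adjusted p = 5.79e-06).

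Of 67 UDP-glucuronosyltransferases, enzymes that conjugate foreign and endogenous compounds, 1 fell and 1 rose. ugt-63 had 6.80, 7.15 and 6.76 in pek-1 mutants, against 7.85, 7.48 and 8.13 in wild type (change -0.92, adjusted p = 0.0391), a call lost without the first or the third array of either genotype, at adjusted p from 0.119 to 0.212. ugt-64 had 7.40, 7.23 and 7.31 in pek-1 mutants, against 6.72, 6.82 and 6.56 in wild type (change 0.61, adjusted p = 0.0121), a call lost without the first mutant array (adjusted p = 0.0695) or the third wild-type array (adjusted p = 0.104). On vector the atf-6 and ire-1 mutants averaged 7.04 and 5.75 for ugt-63, and 6.87 and 7.27 for ugt-64. The family median was -0.05, against 0.01 over all genes, and 12 of the 67 had an unadjusted p under 0.05.

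mak-1, a MAPKAP-type kinase, was lower in pek-1 mutants by 0.51 (SE 0.09, adjusted p = 0.00686), at 8.98, 8.98 and 8.93, against 9.41, 9.53 and 9.49 in wild type. It narrowly missed the threshold without the second wild-type array (adjusted p = 0.0544). Against the ire-1 mutant the difference was -0.34 (adjusted p = 0.0205), and against the atf-6 mutant, with a mean of 9.12, it was -0.15 (adjusted p = 0.808). The SOX-family transcription factor gene sox-4 was lower by 0.51 (adjusted p = 0.0391), a call that was retained in only 1 of the 6 fits leaving out an array, that without the second mutant array, with adjusted p of 0.0555 to 0.173 in the others. srdh-1 fell by 0.52 (adjusted p = 0.0391), was past the threshold in only 1 of those 6 fits, that without the first wild-type array, and reached an adjusted p of 0.203 without the second wild-type array. For srdh-1 the means on vector were 6.62 in the pek-1 mutant, 7.14 in wild type, 6.56 in the atf-6 mutant and 6.46 in the ire-1 mutant. In that order those for sox-4 were 5.85, 6.36, 6.06 and 6.91.

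Y17G9A.2, F14F8.8, Y50E8A.5 and C25E10.5 rose by 0.84, 0.71, 0.68 and 0.63. The first 3 had mean signals under 5 in both groups. Y17G9A.2 missed the threshold in 1 of the 6 fits that leave out an array, without the second mutant array (adjusted p = 0.0653), and F14F8.8, Y50E8A.5 and C25E10.5 in 4, 4 and 5 of the 6, at adjusted p up to 0.176, 0.151 and 0.159, and each of the 6 arrays decided at least 1 of these calls.

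Non-coding RNAs made up 6 of the 28 probe sets that name a single gene, 5 of them higher in the mutant. This share is close to the background, since 0.100% of the 5988 non-coding RNA probe sets were called, against 0.111% of the 18961 protein-coding ones. F42A10.12 had 5.19, 4.76 and 4.88 in pek-1 mutants, against 3.94, 2.93 and 3.61 in wild type (change 1.44, SE 0.26, adjusted p = 0.0121). ZC247.8 rose by 1.39, F12D9.12 by 1.14, B0507.14 by 0.95 and F46C5.13 by 0.91, and C49C3.22 fell by 1.1. In wild type, the atf-6 mutant and the ire-1 mutant on vector, F42A10.12 averaged 3.50, 4.47 and 4.76. In that order ZC247.8 averaged 3.25, 4.25 and 4.05, and F12D9.12 2.27, 3.25 and 3.19. B0507.14 averaged 2.79, 3.36 and 3.55, F46C5.13 4.39, 5.08 and 5.13, and C49C3.22 3.18, 2.63 and 2.65. At the 5 that rose, both other sensor mutants and wild type with tunicamycin also lay above wild type on vector. Among the 5 that rose, F46C5.13 alone passed in every fit that left out an array, the others missing it in 2 to 5 of the 6 fits, and C49C3.22 missed it in 4. Each of the 6 arrays decided at least 1 of these calls, with adjusted p from 0.0637 to 0.173 where they were lost. On RNAi all 6 stood within 0.05 of wild type on the log2 scale. A probe set shared by T19C4.17, F43A11.8 and T19C4.12 rose by 0.69 on vector (adjusted p = 0.0290) and by 0.62 on RNAi (adjusted p = 0.00657), and it missed the threshold on vector in 5 of the 6 fits. Its means on vector were 7.26 in the pek-1 mutant, 6.57 in wild type, 7.27 in the atf-6 mutant and 7.09 in the ire-1 mutant.

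The genes of the unfolded protein response other than pek-1 did not pass the threshold. hsp-4 had 9.84, 10.34 and 9.55 in pek-1 mutants, against 9.77, 9.60 and 9.91 in wild type. These groups overlapped, with the second mutant array highest and the third lowest of all 6. The difference was 0.15 with a 95% interval of -0.13 to 0.43 (adjusted p = 0.851), and -0.06 without the second mutant array. For hsp-3 it was 0.04 (-0.19 to 0.26), for xbp-1 -0.00 (-0.19 to 0.18), for ire-1 0.02 (-0.18 to 0.22) and for atf-6 -0.10 (-0.32 to 0.12).

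On the eIF2 alpha arm, atf-4, the worm counterpart of ATF4, had 8.86, 9.08 and 8.88 in pek-1 mutants, against 8.92, 9.07 and 9.15 in wild type, a difference of -0.11 (-0.35 to 0.14). The other eIF2 alpha kinase gene, gcn-2, which responds to amino acid shortage, differed by 0.04 (-0.19 to 0.27) and its activator gcn-1 by -0.06 (-0.32 to 0.20). Of 11 measured genes for eIF2 alpha kinases and subunits of eIF2 and eIF2B, pek-1 alone was called. For hsp-4 on RNAi the signal was 10.90 in the mutant and 10.34 in wild type, a difference of 0.56 (adjusted p = 0.0179). The contrasts themselves differed by 0.41 for hsp-4 (SE 0.19, adjusted p = 0.386), which did not pass. pmt-2 on vector differed by -0.04 (-0.27 to 0.20), and on RNAi it was higher in the mutant by 0.57 (adjusted p = 0.00354).

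**Figure D4:**
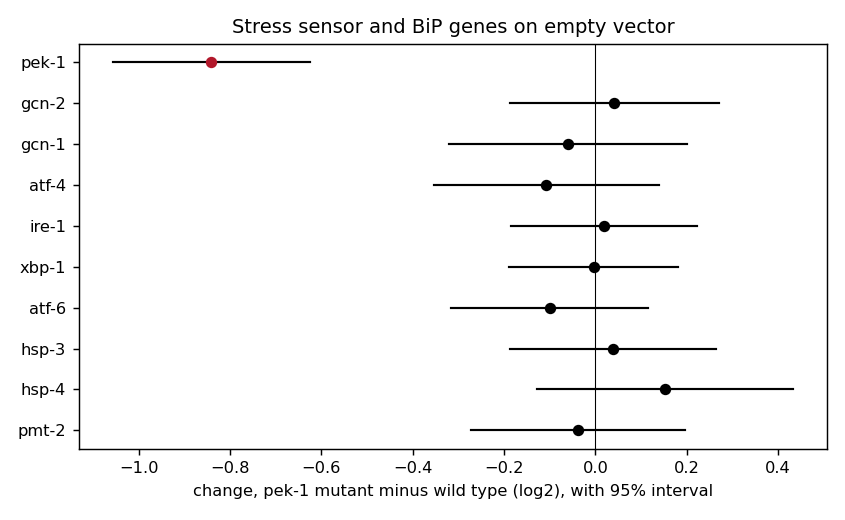
Change between the pek-1 mutant and wild type on vector (log2, horizontal axis) with its 95% interval from limma for genes of the stress sensors, BiP chaperones and pmt-2 (n = 3 arrays per group). The interval for pek-1, in red, lies wholly below 0, and each of the other intervals includes 0.

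Beyond the sensors, lists of genes for pathways, families and tissues were read against the background. Of the 2048 genes on any of 37 lists, 4 were called (pek-1, asns-2, ugt-63 and ugt-64), which is 0.195%, against 28 of all 25879 genes (0.108%). They fell on 4 lists. Over all 25879 genes, 13575 had a positive change and the median was 0.01. Among 28 ER chaperones and folding enzymes 18 were positive, with a median of 0.04 and a range of -0.25 to 0.27, and 0 were called by limma (2 at an unadjusted p under 0.05). Among 25 genes of ER-associated degradation the range was -0.19 to 0.20, and 0 were called (0 at an unadjusted p under 0.05). Among 29 genes of amino acid synthesis and ATF4-type targets, asns-2 alone passed, and 10 were positive. Of 32 aminoacyl-tRNA synthetases, ATF4 targets in mammals, 8 were positive, with a median of -0.03 and 0 called (1 at an unadjusted p under 0.05).

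Genes of protein turnover and translation lay in narrow ranges. Of 33 proteasome genes 26 were positive, with a median of 0.06. Of 75 cytosolic ribosomal proteins 22 were positive, with a median of -0.03, and of 25 translation factors 4, with a median of -0.05. None of these lists held a called gene in limma, and at an unadjusted p under 0.05 they held 0, 1 and 0.

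No gene of the lipid lists passed the test on vector. Of 31 genes of fatty acid synthesis, desaturation and elongation 5 were positive, with a median of -0.11 (0 called by limma, 4 at an unadjusted p under 0.05). fat-7, a stearoyl-CoA desaturase, had 7.93, 7.90 and 7.99 in pek-1 mutants, against 8.27, 8.92 and 8.51 in wild type. These arrays did not overlap, yet the difference of -0.63 had an adjusted p of 0.254. On RNAi the difference was -0.77 (adjusted p = 0.0121). acdh-2, an acyl-CoA dehydrogenase, differed by -0.91 (adjusted p = 0.104) and passed without the first mutant array (-1.12, adjusted p = 0.0488) or the third wild-type array (-1.16, adjusted p = 0.0304). Of 38 genes on the autophagy list, 0 were called by limma (2 at an unadjusted p under 0.05). Among them was mxl-3, a transcription factor that represses lysosomal lipolysis in fed animals. mxl-3 had 9.14, 9.32 and 9.03 in pek-1 mutants, against 9.37, 9.85 and 9.71 in wild type, a difference of -0.48 (adjusted p = 0.0868). It passed without the first wild-type array (-0.62, adjusted p = 0.0136) and when dim probe sets were left out (adjusted p = 0.0220).

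Stress and defence families held no called gene other than the UDP-glucuronosyltransferases above. Of 21 cytosolic heat shock genes 3 had an unadjusted p under 0.05 and 0 were called by limma. Among them hsp-16.2 had 4.08, 4.94 and 4.54 in pek-1 mutants, against 4.43, 5.9 and 5.8 in wild type, overlapping groups with a difference of -0.85 (adjusted p = 0.482). The RNAi arrays gave -1.82 for hsp-16.2 (adjusted p = 0.00213). In 248 C-type lectin domain genes, 74 cytochrome P450 genes and 276 nuclear hormone receptor genes the medians were 0.03, -0.01 and -0.02, with 0 called by limma in each and 35, 9 and 29 at an unadjusted p under 0.05.

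Markers of cell types were examined for shifts in tissue makeup. Of 35 muscle markers 3 were positive, with a median difference of -0.20, and 7 had an unadjusted p under 0.05 though 0 were called by limma. The median muscle signal per array ran from 7.27 to 7.68 in pek-1 mutants and from 7.42 to 7.78 in wild type, so the groups overlapped. unc-22 (twitchin) and myo-3 (a body wall myosin) differed by -0.57 and -0.50 (adjusted p = 0.428 and 0.525), and in both the second mutant array lay above the other mutant arrays. Of 39 oocyte and eggshell markers 32 were positive, with a median of 0.03 and array medians of 10.07 to 10.15 in either genotype. Neuron (77 genes), intestine (27), sperm (74) and hypodermis (25) markers had medians of -0.09, -0.08, -0.11 and -0.09. None of these lists held a called gene in limma, and at an unadjusted p under 0.05 they held 4, 3, 6 and 2 genes. The part of tissue makeup in the called genes was not tested.

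Cuticle collagens differed between the wild-type arrays. Of 174 collagens 63 were positive, with a median of -0.11, and 7 differed by 1 or more on the log2 scale, but 0 were called by limma (19 at an unadjusted p under 0.05). bli-2, a cuticle collagen, had 4.35, 3.54 and 4.38 in pek-1 mutants, against 5.17, 6.66 and 4.60 in wild type, a difference of -1.39 (SE 0.51, adjusted p = 0.432). The second wild-type array was the highest, and without it the difference was -0.79 (adjusted p = 0.829). The collagen medians per array ran from 4.30 to 4.37 in pek-1 mutants and from 4.2 to 5.07 in wild type. The part of this array in the list's median was not tested.

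The same genotypes on pmt-2 RNAi provide arrays that the vector comparison does not use, grouped by title as stated above. There 1149 probe sets passed (4.05%), 816 higher in the mutant (2.87%) and 333 lower (1.17%). Of the 32 probe sets called on vector, 13 also passed on RNAi with the same direction, which is 40.6% of the vector calls and 1.13% of the RNAi calls, and 0 passed with the opposite one. The 13 were pek-1, pdpr-1, dnbp-1, bcf-1, gfi-1, haf-6, gakh-1, Y102A5C.36, W06A11.4, srlf-30, C25E10.5, the T19C4.17 probe set and the one with no gene name. The sign of the change was the same in 26 of the 32, against 49.3% of all probe sets, and over all probe sets the changes of the contrasts correlated at -0.02, a description only.

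The RNAi count was sensitive to single arrays while the shared calls were less so. Without the first or the third mutant RNAi array 609 and 564 probe sets passed, and 14 and 12 were shared. Without the first, the second or the third wild-type RNAi array 493, 2750 and 647 passed, and 12, 16 and 12 were shared. A fit of those RNAi groups alone called 95, of which 8 were shared. Among the lists, the abu and related pqn genes (21 measured), which encode proteins with prion-like repeats and are known from ER stress work in this animal, and the collagens had 13 and 40 members higher and 0 and 4 lower on RNAi, but 0 called by limma on vector, where 1 and 19 had an unadjusted p under 0.05. The difference between the contrasts itself passed for 353 probe sets in all (1.24%). In the abu and collagen lists it passed toward a higher change on RNAi for 6 and 17, and a lower one for 0 and 3. ER chaperones (28 measured) and hypodermis markers (25) had 8 and 10 members higher on RNAi, and 1 and 0 lower. Wild-type RNAi arrays were scattered at some members of the abu and collagen lists. Their SD was 1.098 at pqn-54, 1.68 at col-138 and 1.54 at bli-2, against 0.318, 0.12 and 0.09 in the mutant on RNAi. At abu-2 it was 0.38 against 0.48. The part of this scatter in the list counts was not tested.

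**Figure D5:**
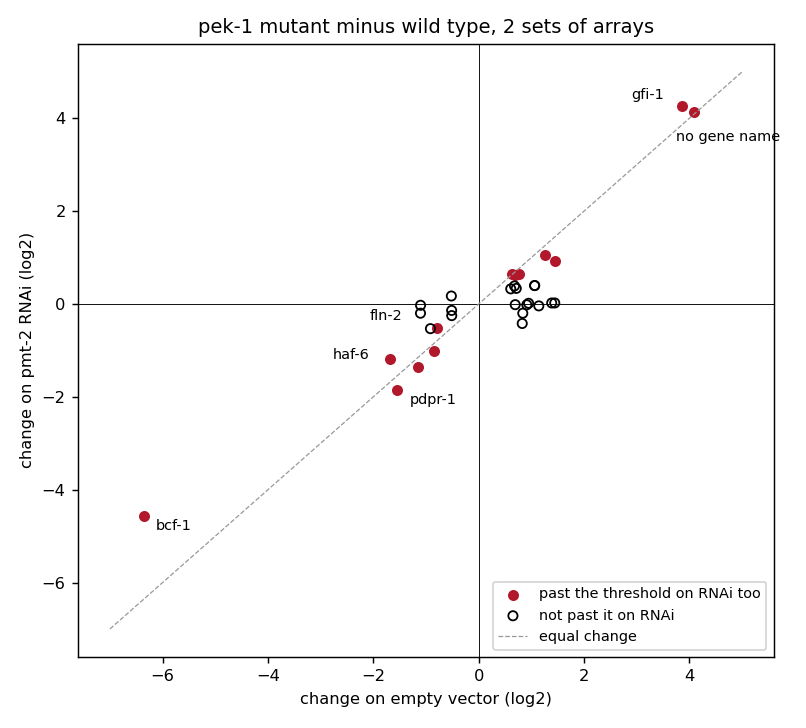
Change between the pek-1 mutant and wild type on vector (log2, horizontal axis) and on pmt-2 RNAi (log2, vertical axis) for the 32 probe sets called on vector, with 3 arrays per group in each contrast. The 13 called in both lie on the same side of 0 on both axes, with bcf-1 off the dashed line of equal change, and the non-coding RNAs lie near 0 on the vertical axis.

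The called probe sets were spread over the genome. Chromosomes I to V and X held 3, 4, 1, 6, 11 and 6 of them, which is 0.0831%, 0.0887%, 0.0296%, 0.140%, 0.167% and 0.113% of their probe sets. Within 1 Mb of pek-1 on chromosome X, 1 of 646 probe sets passed, and that was pek-1 itself. Apart from bcf-1 with gfi-1 and the T04A11.1/T04A11.4 pair, the nearest called probe sets, mak-1 and F46C5.13, lay 82791 bases apart.

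Leaving out each of the 6 arrays in turn gave 22 to 39 calls, and 15 of the 32 passed in every such fit. These were pek-1, pdpr-1, dnbp-1, bcf-1, gfi-1, haf-6, fln-2, gakh-1, Y102A5C.36, W06A11.4, srlf-30, F46C5.13, the T04A11.1/T04A11.4 pair and the probe set with no gene name. Fitted on the 6 arrays alone, 5 passed, namely bcf-1, gfi-1, haf-6, pdpr-1 and the probe set with no gene name, while pek-1, dnbp-1, fln-2, gakh-1 and W06A11.4 missed the threshold at adjusted p of 0.503, 0.374, 0.193, 0.288 and 0.0779. Just outside the threshold lay pcdr-1 and F55A12.16, with changes of -0.66 and -0.86, and just inside it lay ugt-63, srdh-1 and sox-4.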

How the data were processed

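Per the submitters' processing notes RMA (no version given) was used by the authors, who deposited a table of log2 signals per array. Per the file headers, the authors' tables of group pairs hold a Tukey biweight mean on the log2 scale, the SD of each group (a score here) and a p-value with its FDR value. The deposited SDs equalled those of the per-array values to rounding, and 930 rows absent from the pair tables were not used. limma 3.58.1 in R 4.3.3 was fitted to all 30 arrays in 10 groups (20 residual degrees of freedom, 24.3 with the prior), with no block. p-values were adjusted by the Benjamini-Hochberg method over 28387 probe sets, and the threshold was 0.05. The code was tested on simulated data. Probe sets name 1 gene (25930), several (651) or none (1806). Symbols were updated through RefSeq's gene table (WBcel235, 25619 matched, 2556 changed), and lists used the brightest probe set of each of 25879 genes. Coordinates are the files' own. Arrays give no counts, so precision rests on 3 arrays per group.

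The comparison, gene lists and tests were chosen with earlier results of these data known. Genes were named if they were pek-1, pmt-2, ire-1, xbp-1, atf-6, atf-4, gcn-1, gcn-2, hsp-3 or hsp-4, among the 12 largest rises or falls with an adjusted p under 0.05 and arrays that do not overlap, or leading members of a list (up to 3 called, or 2 where none was). C25E10.5, Y50E8A.5, F14F8.8, ugt-64, the probe sets with several genes or none, and those just outside the threshold were named after their values were seen, so that each called probe set is accounted for. Alternatives changed the arrays in the fit, the moderation, the replicate block, the filter on dim probe sets, the centring, the normalization and the source of values.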

Additional observations from a re-analysis of the deposited data

Results flagged for a closer look

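The change between the pek-1 mutant and wild type differed between pmt-2 RNAi and vector, by limma's interaction test, for 353 probe sets (1.24%), 289 with a more positive and 64 with a more negative change on RNAi. This count moved with single arrays, to at most 172 without the first or the third mutant RNAi array, 224 without the third mutant vector array, 146, 1532 and 162 without the first, the second or the third wild-type RNAi array, and 200 without the second wild-type vector array. Of the genes called on vector, 8 passed this test. They were selected by their vector change, which the test subtracts, so this count cannot be read against the share of all probe sets. In the 6 fits that left out an array, bcf-1, fln-2 and F46C5.13 kept their vector call in all 6. srdh-1, Y51A2B.8, F12D9.12, B0507.14 and Y17G9A.2 kept it in 1, 2, 3, 4 and 5. Values are the change on RNAi minus that on vector, on the log2 scale. pmt-2, the RNAi target, gave 0.61, which did not pass (adjusted p = 0.0613). bcf-1 gave 1.8. The mutant averaged 3.19 on vector and 2.90 on RNAi, both near the low end of the signal range, and wild type 9.55 and 7.46, so the value follows the wild-type level. fln-2 gave 0.91 and srdh-1 0.69. The values were -1.18 for F12D9.12, -0.93 for B0507.14, -0.93 for F46C5.13, -1.04 for Y17G9A.2 and -1.25 for Y51A2B.8, genes whose rise on vector had no counterpart on RNAi. Among genes not called on vector, the collagen gene bli-2 gave 3.49 and the antimicrobial peptide gene nlp-34 gave 2.12. bli-2 was -1.39 on vector (-0.79 without the second wild-type array) and 2.1 on RNAi, and nlp-34 was 0.92 and 3.04. At bli-2 the wild-type RNAi arrays had an SD of 1.54, against 0.09 in the mutant on RNAi, and at nlp-34 0.36 against 0.24.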

How the results depend on the processing

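The 32 calls became 16 (8 higher, 8 lower) in a test rebuilt from the deposited means, 54 (17 higher, 37 lower) without dim probe sets, 5 (2 higher, 3 lower) when only the groups compared were fitted, 14 (7 higher, 7 lower) with the 12 vector arrays, an alternative added after the data were seen, and 0 by the authors' FDR values. Without single arrays they ran from 22 to 39. On RNAi 1149 became 95 with only those groups and 493 to 2750 without single arrays. The 353 interaction calls became 542 without dim probe sets, 36 with only those groups and 146 to 1532 without single arrays. Against atf-6, 12 probe sets passed (0.0423%), 2 with only those groups, 19 with an intensity trend and 7 to 16 without single arrays. Against ire-1, 1507 passed (5.31%), 957 with only those groups and 995 to 1307 without single arrays. Among the genes tested singly on vector, no called change turned its sign in the alternatives run. Of the changes near 0, none past the threshold in any setting, some changed sign. Without single arrays hsp-4 ran from -0.0613 to 0.333, hsp-3 from -0.0486 to 0.0986, ire-1 from -0.0484 to 0.0736, xbp-1 from -0.0810 to 0.0512 and pmt-2 from -0.0694 to 0.00105. ire-1 was -0.0172 with arrays centred on their medians and xbp-1 0.0139 with quantile normalization. The cause was not tested. The intensity trend gave 20 higher and 25 lower calls on vector. Replicate numbers did not pair the arrays, same-numbered deviations on vector correlating at -0.01, -0.03 and -0.00. With the replicate block 32 passed on vector, 30 of them among the 32 without it, srdh-1 and ZC247.8 missing the threshold at an adjusted p of 0.0549. On RNAi the block gave 1129, for the interaction 346, against atf-6 12 and against ire-1 1485. In the pek-1 mutant and wild type on vector 18451 and 18485 probe sets had a mean log2 signal under 5, where changes are compressed.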
